A study of Mus musculus with 36 samples.

Results

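The mouse genes studied here carry a Zfp name with a number and lie on chromosomes 7, 10 or 13. They were taken from the deposited count table by gene name and chromosome, with at least 1 read pair summed over the 36 libraries. The rule found 134 of 55487 genes, 92 on chromosome 7, 36 on chromosome 13 and 6 on chromosome 10. A further 254 genes with the same kind of name and at least 1 read pair lie on other chromosomes and serve as the nearest comparison. Members were chosen by name, chromosome and the summed read count. The rule itself uses no contrast between groups, but it was set with earlier results of these data known. Just inside the threshold lay Zfp640 with 2 read pairs, Zfp953 with 3, Zfp87 with 4 and Zfp456 with 23. Outside it lay Zfp865, Zfp580, Zfp708, Zfp729a and Zfp419, each with 0. Other genes on the same strand cover 100% of the span of Zfp865, Zfp580 and Zfp708 and 99.9% of Zfp729a. A count of 0 there does not show that the gene is silent.

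Cortices of female embryos at E14.5 were the source. Lysate was spread on a density gradient, which is meant to part mRNA with 1 ribosome (monosome) from mRNA with several (polysome). Unfractionated RNA of the lysate was kept as input. The labels do not say which gradient fractions were joined under each name. Each library is 1 pool of 2 embryos, and each of the 12 groups has 3 pools. In the LoF cross, conditional heterozygotes (cHet) were Emx1-Cre/+;Ddx3x lox/+ and controls were Ddx3x lox/+ without Cre. In the T532M cross, cHet were Emx1-Cre/+;Ddx3x-T532M lox/+ and controls were Emx1-Cre/+. Ddx3x is an X-linked RNA helicase that acts in translation initiation, and T532M is a missense allele. Emx1-Cre is active in dorsal forebrain progenitors and the cells they give rise to; interneurons, vessels and meninges keep their alleles. The labels give no litter or extraction day. In the main fits the p-values rest on 1 spread per gene, estimated over the pools of all fractions together. They do not measure the spread between pools in the compared fraction alone. The members varied more between pools in input than in the fractions (below), so p-values in input can be too small. In such bulk tissue, fewer cells of a type and less RNA per cell cannot be told apart.

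Most genes of this name encode tandem zinc fingers, in which 2 cysteines and 2 histidines hold a zinc ion and the residues between contact DNA. Many carry a KRAB domain at the amino-terminal end, which recruits the co-repressor TRIM28 and through it histone and DNA methylation, above all at transposable elements. Such genes have multiplied by tandem duplication and sit in clusters. The chromosome 13 cluster holds the genes for regulators of sex-limitation (Rsl), KRAB proteins that repress sex-biased liver genes.

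One finger from each of 4 members on which the results turn shows what the family shares and how its base composition differs. Each line gives the coding strand as read from the GENCODE M21 transcript on GRCm38, and capitals mark the codons of the cysteines and histidines.
Zfp458: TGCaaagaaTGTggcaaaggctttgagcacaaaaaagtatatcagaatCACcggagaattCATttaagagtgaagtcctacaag
Zfp60: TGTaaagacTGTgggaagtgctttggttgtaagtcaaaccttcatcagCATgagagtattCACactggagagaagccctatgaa
Zfp329: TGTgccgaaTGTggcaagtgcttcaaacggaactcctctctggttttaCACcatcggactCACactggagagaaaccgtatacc
Zfp628: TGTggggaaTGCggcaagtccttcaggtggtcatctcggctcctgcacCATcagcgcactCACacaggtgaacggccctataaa
These windows lie at chr13:67258044-67258127 (minus strand, exon 4 of 4 of Zfp458), chr7:27748431-27748514 (plus strand, exon 5 of 5 of Zfp60), chr7:12810957-12811040 (minus strand, exon 2 of 2 of Zfp329) and chr7:4918886-4918969 (plus strand, exon 3 of 3 of Zfp628). Their GC content (share of G and C) was 38.1% in Zfp458, 42.9% in Zfp60, 50.0% in Zfp329 and 57.1% in Zfp628, and over the whole transcripts it was 38%, 40.1%, 39.7% and 63.5%. Of the 84 bases, 52 were identical between Zfp60 and Zfp628 and 39 between Zfp458 and Zfp628.

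The linker that joins adjacent fingers is known as the stretch most alike across the family. The run of 11 letters found in the coding sequence of the most members, read on the coding strand only, was GGAGAGAAACC, a part of that linker. It occurred in 70 of 130 members with a coding transcript (53.8%), which chose it, and in 181 of 14601 other tested genes (1.24%). Those other genes include the zinc finger genes on other chromosomes, whose own share is not given here. Zfp808 held it most often, 17 times. A finger match, Cys-2 to 4 residues-Cys-12 residues-His-3 to 5 residues-His, was found in 126 of the 130, with a median of 11 and a highest count of 33 in Zfp619. The 4 without one were Zfp36, Zfp365, Zfp781 and Zfp935. Zfp36 is tristetraprolin, an mRNA decay factor with fingers of the Cys-Cys-Cys-His type, and Zfp365 is a centrosomal protein, so the name covers a few genes outside the family. The members' transcripts had a median GC content of 45.9% (35.7% to 68.7%), against 50.6% over all genes tested. Their coding length had a median of 1756.5 bases against 1413. In 251 zinc finger genes on other chromosomes the medians were 43.7% GC, 1704 coding bases and 10 finger matches. These traits are thus not particular to the members.

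With a cluster defined as at least 5 members whose successive gaps are at most 500000 bases, 97 members fell into 9 clusters, 8 on chromosome 7 and 1 on chromosome 13, and 37 lay outside. The 6 members on chromosome 10 formed no cluster, so the clustered genes are those of chromosomes 7 and 13. The chromosome 13 cluster, chr13:66669928-67827002, was the biggest by members, with 22, of which 18 lie on the minus strand, and its median GC content was 39.1%. At the other end of GC content, the cluster at chr7:127233061-127885996 held 10 members with a median of 53.8%.

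Close relationship limits the counting of some members. Over the transcripts, the median share of 50-base windows also found in another gene was 0.857%, but it exceeded 10% in 33 members and 50% in 5 (Zfp59, Zfp433, Zfp781, Zfp935 and Zfp640). Reads were counted over whole gene spans with strand, and 24 members overlap another gene on their strand, 11 over more than 50% of the span. Zfp729b is one of these, with 86.6%. Values of such members are uncertain.

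The libraries held 36999365 to 57935512 counted read pairs. Cortical neuron and progenitor genes were present throughout the input (Neurod6 647 to 1059 CPM, read pairs scaled to a common library size; Emx1 62.7 to 88.3). Ddx3x in the polysome fraction lay at 1697 to 2218 CPM in LoF cHet and 2061 to 2569 in its controls, with overlap, and at 4158 to 6005 in T532M cHet against 2343 to 3566, and the counted span includes bases that are not deleted. Markers of choroid plexus, another tissue next to the cortex, summed to 195 and 214 CPM in the input of LoF control pools 1 and 3 and to 237 in T532M cHet pool 1, against 10.1 to 55.2 in the other 9 input libraries.

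The members together made up a larger share of fraction libraries than of input. Of all read pairs counted, 0.184% to 0.242% fell on members in the 12 input libraries, 0.397% to 0.458% in monosome and 0.299% to 0.333% in polysome, so that by plain share monosome was highest. After scaling between libraries polysome was highest. The summed scaled level was 1497 to 1936 CPM in input (median 1730), 3202 to 3715 in monosome (median 3452) and 4274 to 5509 in polysome (median 4625). On neither scale did the fractions overlap. Over the 6 control input libraries the levels per kb of gene span, introns included, were highest for Zfp553 (19.1 CPM per kb), Zfp768 (13.2), Zfp428 (9.93), Zfp629 (8.88) and Zfp646 (8.19). Of these 5, all but Zfp428 lie in the GC-rich cluster on chromosome 7. Among tested members the lowest were Zfp433 (0.00323), Zfp808 (0.00265) and Zfp781 (0.000352, and 0 reads in each of the 3 LoF control input libraries). The filter on low counts left 124 members tested in the LoF cross and 125 in the T532M cross, and 9 in neither.

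**Figure D1:**
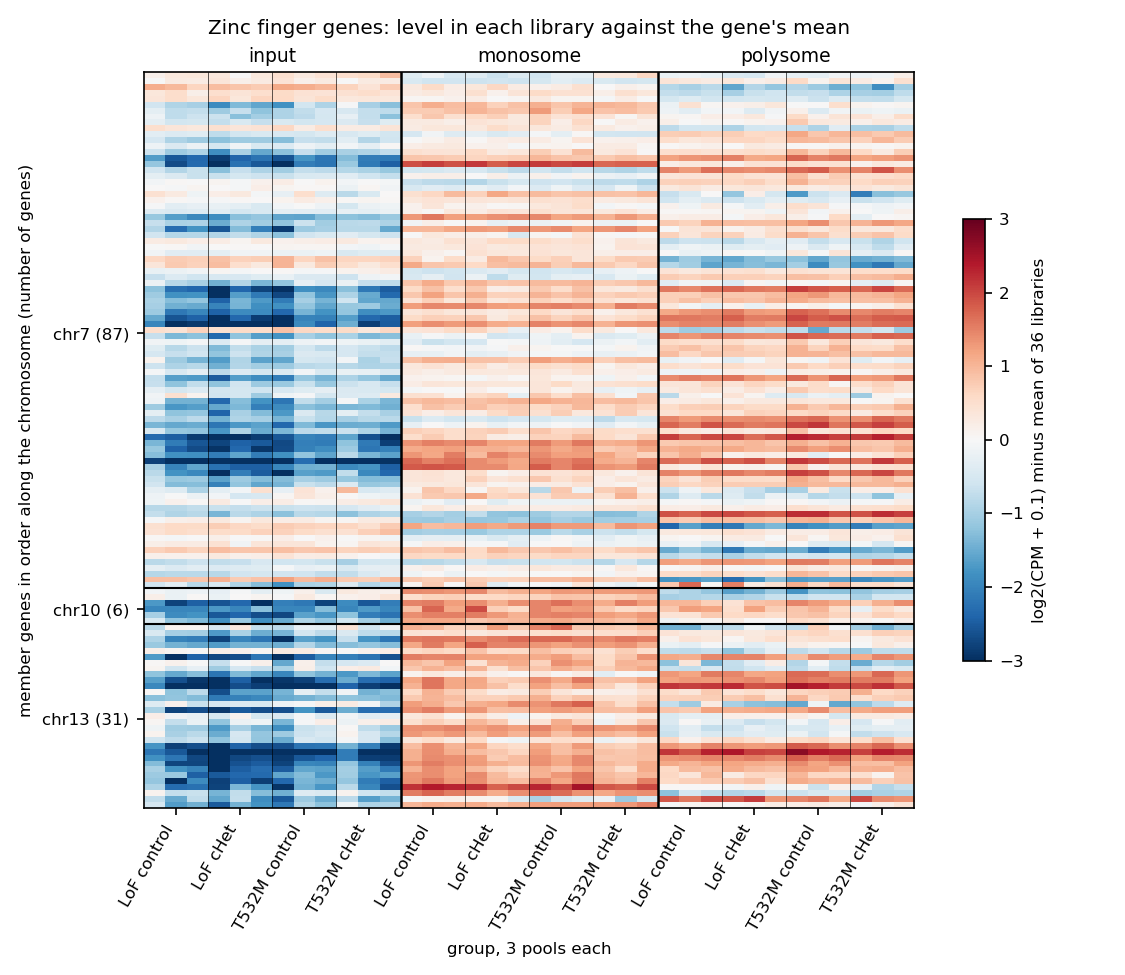
Heat map of the members tested in both crosses (rows, in order along chromosomes 7, 10 and 13) in the 36 libraries (columns, by fraction and group), as log2(CPM + 0.1) minus the gene's mean; red is above and blue below that mean. Most rows are blue in input and red in monosome or polysome.

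The first question was where the members' mRNA sedimented in control cortex. Most were more abundant, relative to the other genes, in the monosome fraction than in input. In LoF controls 94 of 124 members were higher and 10 lower (edgeR quasi-likelihood test, adjusted p under 0.05). Of all genes tested 62.7% were called, 32.2% higher and 30.6% lower. The median log2 fold change was 1.15 for members and 0.04 for all genes. In T532M controls 97 of 125 were higher and 11 lower, with a median of 1.32 against 0.03 and 63.1% of all genes called (32.1% higher, 31% lower). Zinc finger genes on other chromosomes had 164 higher and 27 lower of 226, with a median of 1.28 in LoF controls, and 167 and 27 with a median of 1.43 in T532M controls. Xist, a non-coding RNA, was also higher in the fractions. Over all libraries it lay at 5.64 to 15.4 CPM in input, 56.3 to 83.3 in monosome and 33.9 to 63.8 in polysome. A higher level in a fraction than in input does not by itself show ribosome binding. The filter on low counts used all fractions of a cross, so a member scarcely seen in input can pass it through the fractions alone. In LoF control input Zfp433 lay at 0.0730 CPM, Zfp977 at 0.0369 and Zfp781 at 0. For such members the direction of these comparisons was set by the filter.

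The 4 genes whose fingers are shown above are examples, and other members changed more in either direction (below). Zfp329 lay at 17.5, 6.05 and 7.71 CPM in LoF control input, at 150, 167 and 148 in monosome and at 45.4, 48.8 and 49.7 in polysome. It was thus highest in the monosome fraction, with no overlap between fractions. Its log2 fold change from input to monosome was 3.90 (SE 0.299), and from monosome to polysome it fell by 1.70.
Zfp60 lay at 46.9, 22.9 and 21.2 CPM in input, at 165, 202 and 156 in monosome and at 332, 297 and 341 in polysome. It rose at each step, by 2.53 (SE 0.269) and then by 0.88 (SE 0.255) on the log2 scale. The second step was 0.07 without scaling factors for the libraries and no longer passed (edgeR adjusted p = 0.799).
Zfp458 lay at 2.47, 2.59 and 2.38 CPM in input, 10.5, 12.3 and 11.5 in monosome and 9.79, 9.97 and 10.2 in polysome. It rose from input to monosome by 2.21 (SE 0.127, edgeR adjusted p = 2.90e-11), and its monosome and polysome levels did not differ past the threshold (log2 fold change -0.21, edgeR adjusted p = 0.114).
Zfp628 went the other way: 21.7, 24.1 and 24.7 CPM in input, 15.1, 17.3 and 13.8 in monosome and 17, 17.4 and 16.5 in polysome. It was lower in monosome than in input by a log2 fold change of -0.61 (SE 0.125, edgeR adjusted p = 0.000302). Under a correction of each library for GC content the rises from input to monosome were 2.51 for Zfp329 and 1.22 for Zfp60, and the value of Zfp628 was -0.20 and did not pass (edgeR adjusted p = 0.121).

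Among the members past the threshold, the biggest rises from input to monosome in LoF controls included Zfp976, from 0.259 ± 0.112 to 9.70 ± 0.670 CPM (SD, n = 3), a log2 fold change of 5.20. Members were named here if their mean over both compared fractions was at least 1 CPM. Zfp976 met that level through monosome alone. Zfp850 (3.96), Zfp738 (3.52) and Zfp169 (2.68) also rose. The falls were smaller: Zfp768 from 35.9 ± 1.72 to 12.5 ± 0.289 CPM (log2 fold change -1.52) and Zfp553 from 95.1 ± 7.97 to 42.2 ± 1.91 (-1.17), both in the GC-rich chromosome 7 cluster. T532M controls gave 4.67 for Zfp976, -1.58 for Zfp768 and -1.31 for Zfp553.

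From monosome to polysome the members split. In LoF controls 33 were higher and 51 lower (median -0.22). Of all genes 81.2% were called, 36.4% higher and 44.9% lower, with a median of -0.31. In T532M controls 39 were higher and 47 lower (median -0.07), beside 79.9% of all genes, 36% higher and 43.9% lower (median -0.31). That T532M median was 0.0091 without control pool 3 and 0.0060 with RLE scaling. Zfp143, an activator of many housekeeping and small nuclear RNA promoters, rose from 19.6 ± 0.945 to 142 ± 11.5 CPM (SD, n = 3; log2 fold change 2.84). Zfp629 rose by 2.03, and Zfp110, which encodes a protein that binds a neurotrophin receptor, by 1.97. In the other direction Zfp771 went from 22.4 ± 2.05 to 2.67 ± 0.732 CPM (-3.07), Zfp511 from 20.8 ± 0.691 to 3.60 ± 0.258 (-2.54), and Zfp365 from 12.2 ± 0.468 to 2.38 ± 0.342 (-2.38). The T532M controls gave 3.05 for Zfp143, -3.21 for Zfp771 and -2.65 for Zfp511.

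Polysome against input gave 84 higher and 21 lower in LoF controls (median 1.17), beside 79.3% of all genes, 36.5% higher and 42.8% lower (median -0.27). It gave 87 and 24 in T532M controls (median 1.41), beside 79% of all genes, 36.6% higher and 42.4% lower (median -0.26). Zfp976 (5.30), Zfp729b (4.91), Zfp759 (4.87) and Zfp536, a repressor of neuronal differentiation (3.18), rose, while Zfp511 (-2.63), Zfp771 (-2.58) and Zfp688 (-2.09) fell. In LoF control input Zfp976, Zfp729b and Zfp759 lay at 0.259, 0.778 and 0.569 CPM. They met the level for naming through polysome alone.

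Comparisons with polysome libraries rest on the scaling, since the scaling factors of those libraries were 0.576 to 0.731 against 1.15 to 1.28 for the others. Without them, 13 members were higher and 93 lower in polysome than in monosome in LoF controls, with a median of -1.03, where 24.3% of all genes were higher and 60.2% lower (median -1.12). In T532M controls 11 were higher and 91 lower (median -1.05), beside 21.5% and 62% of all genes (median -1.28). Polysome against input became 58 higher and 45 lower in LoF controls (median 0.32), beside 24.6% and 59% of all genes (median -1.12). It became 63 and 40 in T532M controls (median 0.48), beside 24.2% and 58.7% (median -1.18). In each of these the members' median lay above that of all genes.

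GC content moved with the rise from input to monosome. Over 122 members in LoF controls the log2 fold change and transcript GC had a Pearson r of -0.72 (Spearman rho -0.80), and over 123 in T532M controls -0.76 (-0.82). These are descriptions over members of shared libraries. In the lowest sixth of genes by GC content (33% to 43.9%) all 53 tested members were above 0 in LoF controls, with a median of 2.75, while the other genes of that sixth had a median of 1.07. In the highest sixth 4 members were above and 7 below, with medians of -0.23 and -0.46. After the GC correction, a setting added after seeing the data, 86 of 122 members were higher and 10 lower in LoF controls, beside 32.2% and 33.6% of all genes, and the median was 0.73 against -0.02. In T532M controls 86 of 123 were higher and 9 lower, beside 31.1% and 33.9%, with medians of 0.77 and -0.04. The change from monosome to polysome went with coding length, r 0.52 (rho 0.57) in LoF and 0.54 (0.60) in T532M controls. Its correlation with GC content is not given here. The part of either property in the results was not tested.

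**Figure D2:**
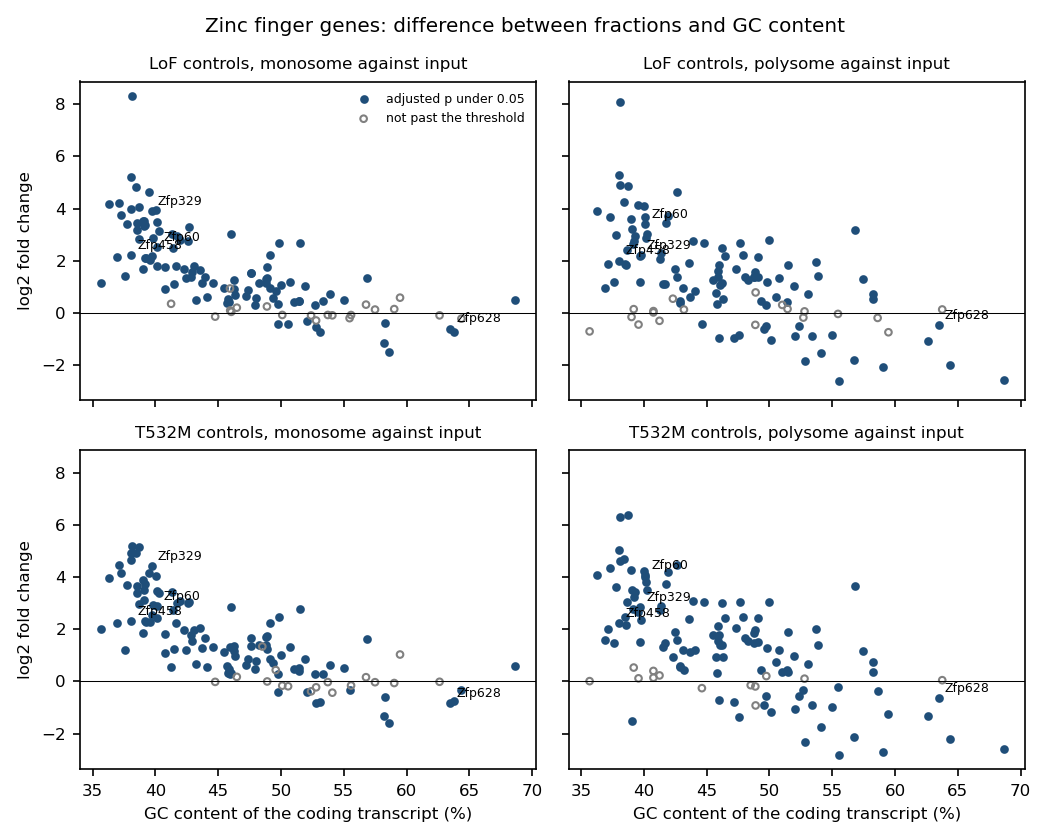
Log2 fold change of each member, monosome against input and polysome against input in the controls of each cross (vertical axis), against GC content of its coding transcript in percent (horizontal axis). Filled points passed an adjusted p of 0.05; in LoF controls all 53 members below 43.9% GC lie above 0 in monosome against input.

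By position, the chromosome 13 cluster had 17 of its 18 tested members higher in monosome than in input in LoF controls, none lower, with a median of 2.85, beside the 32.2% higher and 30.6% lower of all genes given above. Its summed level was 33.2 CPM in input, 232 in monosome and 257 in polysome. The GC-rich chromosome 7 cluster had 4 higher and 2 lower, a median of 0.03, and sums of 404, 397 and 803 CPM. The cluster at chr7:42473386-43618285, with a median GC content of 40.1%, had 8 of 8 tested members higher (median 2.47) and sums of 29.8, 122 and 171 CPM.

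The members' input levels also varied between pools more than their fraction levels did. Over the 104 members with a mean input level of at least 1 CPM, the highest of the 12 pools exceeded the lowest by a median of 1.89 times in input, 1.40 in monosome and 1.48 in polysome. In 65 of them the input ratio was larger than both others. No such ratio is given here for other genes, so this is not shown to be particular to the members. Low counts also widen the ratio, and the members' summed level was lowest in input. Zfp455, for example, had a mean of 0.515 CPM in LoF cHet input. The 8 with the widest input range were Zfp455 (8.68 times), Zfp850 (7.17), Zfp85 (6.02), Zfp65 (5.90), Zfp715 (5.78), Zfp131 (5.25), Zfp260 (4.99) and Zfp322a (4.99), and in fractions their ratios were 1.24 to 1.88. In 7 of the 8 the highest and next highest input levels were those of LoF control pool 1 and T532M cHet pool 1, and in Zfp850 T532M control pool 2 lay second. Zfp131, which pairs its fingers with a BTB domain, lay at 42.2 CPM in LoF control pool 1 and 55.0 in T532M cHet pool 1, and at 10.5 in LoF cHet pool 1. In monosome the same pools gave 119, 143 and 131 CPM.

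These pools stood apart in other low-GC genes as well. In 1895 genes of the lowest sixth by GC that are no members, the median deviation from the gene's mean over input libraries was 0.38 in LoF control pool 1, 0.40 in T532M cHet pool 1, -0.51 in LoF cHet pool 1 and -0.40 in T532M control pool 1, on the log2 scale. The members' medians there were 0.25, 0.17, -0.36 and -0.18. T532M control pool 2 was high as well, with 0.21 in the other low-GC genes and 0.17 in the members. In that pool 82 of 103 members lay above their mean, against 74 in T532M cHet pool 1. LoF control pool 1 and T532M cHet pool 1 are also among the 3 with the high choroid plexus sum named above. T532M control pool 2, with a sum of 15.3 CPM, is not. The part of these differences in the genotype comparisons was not tested.

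**Figure D3:**
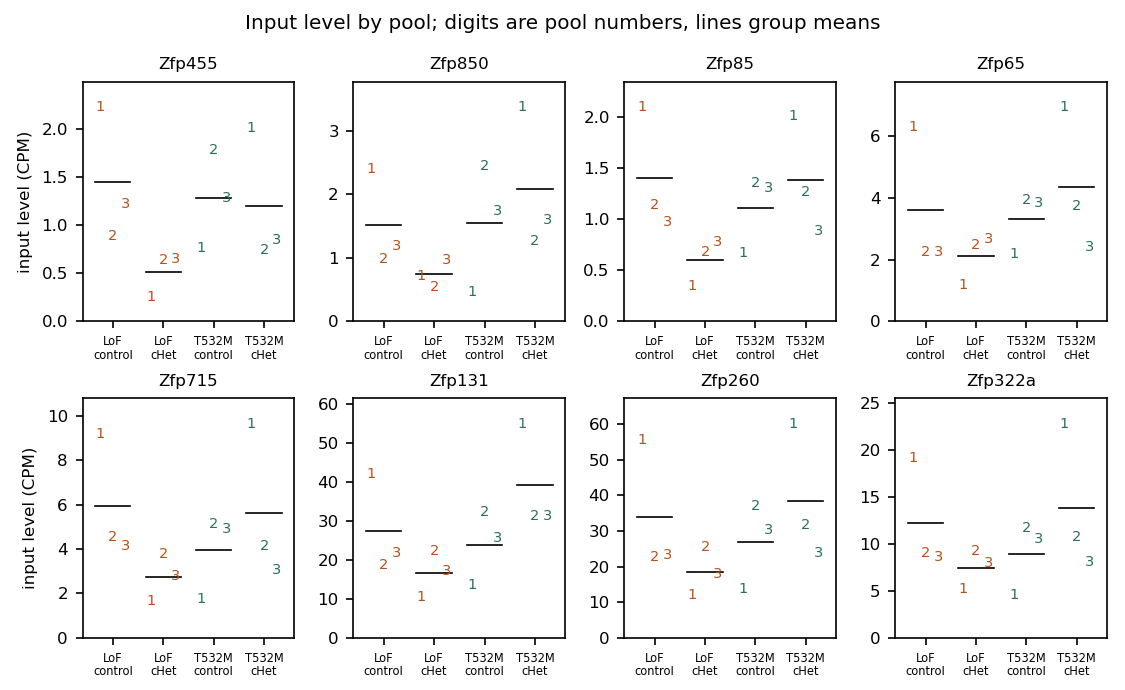
Input level in CPM of the 8 members with the widest range over pools, by group; digits are pool numbers and lines are group means. The digit 1 of LoF control and of T532M cHet stand highest in 7 of the 8, and in Zfp850 the digit 2 of T532M control is second.

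The next comparison asked whether loss of 1 Ddx3x copy in Emx1-lineage cells changed the members. Since only the cHet of this cross carry Cre, Cre and the deletion cannot be told apart. In LoF input 0 of 124 members passed the threshold (edgeR, adjusted over 18556 genes, of which 0% were called), and 50 had an unadjusted p under 0.05, all lower in cHet, where 10.8% of all genes had such a p. The members leaned lower: 97 of 124 were below 0 (all genes 51.5%), with a median of -0.29 against -0.01, and in 15 every cHet pool lay below every control pool (all genes 6.21%) and in 3 above (all genes 5.06%). The zinc finger genes on other chromosomes had a median of -0.26, with 161 of 226 below 0. The lean went with GC content, with 52 of 53 members below 0 and a median of -0.69 in the lowest sixth, where other genes had -0.36. Pearson's r was 0.46 and Spearman's rho 0.75 over 122 members. The same input libraries differed in the list of 8 choroid plexus and hem markers (10.1 to 55.2 CPM summed in cHet, 23.5 to 214 in controls) and in the share of read pairs of 1 gene, CT010467.1 (4.43% to 5.26% against 0.565% to 1.70%). Their part in the result was not tested.

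Zfp458 had the smallest p. Its input level was 2.47, 2.59 and 2.38 CPM in controls and 1.32, 1.40 and 1.51 in cHet, from 70 to 140 read pairs a library, so that the groups did not overlap. The log2 fold change was -0.81 (SE 0.137, edgeR adjusted p = 0.0860), between -0.75 and -0.87 with each pool left out. Under the GC correction it was -0.27 (edgeR adjusted p = 0.999), and under DESeq2 its adjusted p was 0.00336. In T532M input the same gene lay at 2.04, 2.20 and 2.39 in controls and 2.56, 2.49 and 2.36 in cHet, with overlap.
Zfp873 lay at 5.33, 2.86 and 3.03 CPM in controls and 1.76, 2.00 and 1.62 in cHet (log2 fold change -1.06, edgeR adjusted p = 0.109), without overlap. Zfp455 lay at 2.23, 0.889 and 1.22 in controls and 0.257, 0.640 and 0.648 in cHet (-1.50, edgeR adjusted p = 0.151), with control pool 1 far above the rest, and its value was -1.05 without that pool.

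The count of calls in LoF input depended on the method, with 9 lower under DESeq2 and 37 lower without the filter on low counts. The shares of all genes called under these settings are not given here, so these counts are not shown to be particular to the members. The members' median was -0.13 without control pool 1, -0.15 without cHet pool 1 and -0.10 after the GC correction. In the chromosome 13 cluster all 18 tested members were below 0, with a median of -0.73, and in the GC-rich chromosome 7 cluster 9 of 10 were above 0, with a median of 0.10.

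In LoF monosome 0 members were called (all genes 0.0108%), 4 had an unadjusted p under 0.05 (all genes 4.2%), and the median was -0.06 (-0.079 to -0.014 with a pool left out, nearest 0 without control pool 2). In polysome 0 were called (all genes 0%), with 6 unadjusted (all genes 3.23%) and a median of 0.01 (-0.017 to 0.032 with a pool left out, lowest without cHet pool 1). DESeq2 called 0 in either. The smallest p values belonged to Zfp975 (log2 fold change -0.53), Zfp30 (0.33) and Zfp85 (-0.49) in monosome and to Zfp365 (-0.43), Zfp457 (-1.43) and Zfp429 (0.50) in polysome, with edgeR adjusted p of 1.00 each. Zfp457 was barely detected in polysome, with means of 0.0680 CPM in cHet and 0.186 in controls. Zfp458 lay at 10.5, 12.3 and 11.5 CPM against 9.81, 9.74 and 10.5 in monosome and at 9.79, 9.97 and 10.2 against 10.3, 11.4 and 8.44 in polysome, with overlap in both.

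**Figure D4:**
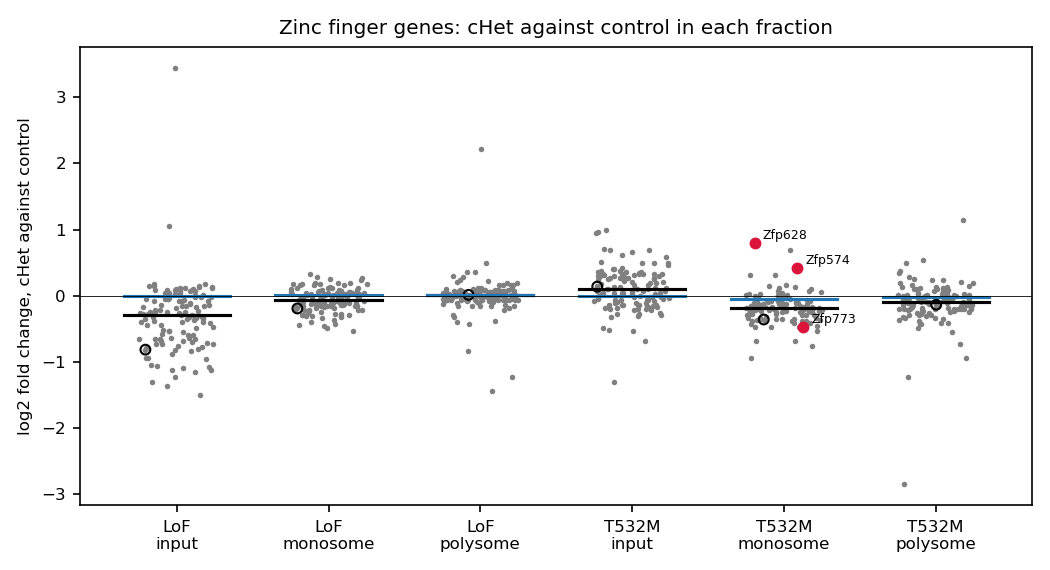
Log2 fold change of each tested member, cHet against control, by cross and fraction; black lines are the members' medians, blue lines the medians of all genes tested, red points passed the threshold and open circles are Zfp458. The members' median is -0.29 in LoF input and -0.18 in T532M monosome.

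In the T532M cross 3 members passed the threshold, all in the monosome fraction, where 1.03% of all genes were called. Zfp628 rose, from 12.9, 16 and 15.8 CPM in controls to 23.9, 24.2 and 29.7 in cHet, a log2 fold change of 0.79 (SE 0.133, edgeR adjusted p = 0.00648). Zfp574 rose from 24.4, 26.6 and 24.8 CPM to 31.3, 33.4 and 36.8, by 0.42 (SE 0.0877, edgeR adjusted p = 0.0276). Zfp773 fell from 15.0, 12.6 and 15.9 CPM to 10.6, 10.4 and 10.3, a log2 fold change of -0.48 (SE 0.112, edgeR adjusted p = 0.0494). In none of the 3 did the groups overlap. Zfp14 lay just outside (-0.46, edgeR adjusted p = 0.0513).

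Zfp628 and Zfp574 have GC-rich transcripts (63.5% and 58.3%), long coding sequences (3117 and 2703 bases), 16 and 18 finger matches and no 50-base window shared with another gene. Zfp773 has 46.0% GC and 8 finger matches. Zfp574 and Zfp773 each lie in a chromosome 7 cluster, and Zfp628 lies outside the clusters. Zfp628 spans chr7:4915217-4922002, Zfp574 chr7:25072567-25083492 and Zfp773 chr7:7127073-7136755. Their input differences were smaller and did not pass: 0.26 for Zfp628, 0.17 for Zfp574 and -0.02 for Zfp773 (edgeR adjusted p = 0.483, 0.501 and 0.963). In the LoF cross the monosome value of Zfp628 was -0.16 (edgeR adjusted p = 1.00).

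**Figure D5:**
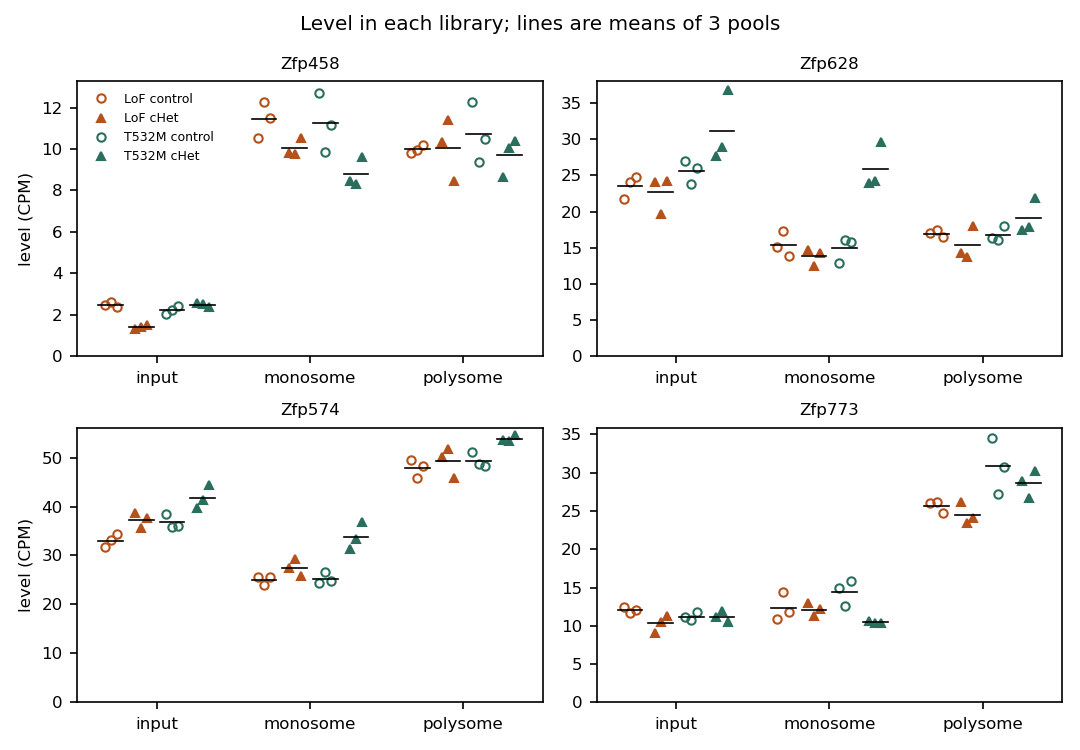
Level in CPM of Zfp458, Zfp628, Zfp574 and Zfp773 in all 36 libraries, by fraction; open circles are controls, filled triangles cHet, and lines the means of 3 pools. In T532M monosome the cHet points of Zfp628 (23.9 to 29.7) lie above those of the controls (12.9 to 16).

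These calls rest on few pools. None of the 3 passed without T532M control pool 1 or without control pool 3, when Zfp628 had edgeR adjusted p of 0.101 and 0.0933, and Zfp628 alone passed with any 1 of the cHet pools left out. With the replicate number as a block 4 members passed, with Zfp14 added, and DESeq2 called 9. The shares of all genes called under these settings are not given here. Zfp574 missed the threshold with another scaling (edgeR with RLE factors, adjusted p = 0.0577), as did Zfp773 under the GC correction (0.0647) and with the libraries of the fraction alone (0.0898). Zfp628 alone passed without the filter on low counts and without scaling factors.

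Across all tested members in T532M monosome, 105 of 125 were below 0 (all genes 57.2%), with a median of -0.18 against -0.05. The 1895 other low-GC genes also lay lower in cHet. Their median log2 deviations over monosome libraries were 0.061, 0.044 and 0.080 in control pools and -0.074, -0.012 and 0.028 in cHet pools. The members had 0.095, 0.041 and 0.10 in controls and -0.15, -0.045 and -0.021 in cHet. In 39 every cHet pool lay below every control pool (all genes 12.2%), and in 5 above (all genes 9.01%). Zfp458 was one of those below 0, at 12.7, 9.87 and 11.2 CPM in controls and 8.48, 8.32 and 9.63 in cHet (log2 fold change -0.36, edgeR adjusted p = 0.289). The share of read pairs of CT010467.1 differed between the same libraries, 0.591% to 0.901% in cHet against 0.420% to 0.554% in controls, without overlap, and its part in the shift was not tested.

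In T532M input 0 of 125 members passed (all genes 0.00548%), with 12 at an unadjusted p under 0.05 (all genes 10.7%) and a median of 0.10; DESeq2 called 1. That median was -0.028 without cHet pool 1, -0.0046 without control pool 1, 0.20 without control pool 2 and -0.038 after the GC correction. Zfp689 (log2 fold change -0.29, edgeR adjusted p = 0.286), Zfp131 (0.71) and Zfp592 (0.27) had the smallest p values. In polysome 0 passed (all genes 0%, DESeq2 0), with 5 unadjusted (all genes 7.92%). The smallest p values were those of Zfp94 (-0.43), Zfp389 (-2.85) and Zfp689 (-0.26), with edgeR adjusted p of 0.501 to 0.521. Zfp389 was barely detected, with means of 0.0213 CPM in cHet and 0.185 in controls.

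Whether the genotype effect changed between fractions was tested directly. For polysome over input 0 members passed in the LoF cross (all genes 0.0108%) and 0 in the T532M cross (all genes 0%), and for polysome over monosome 0 (all genes 0%) and 0 (all genes 0.0603%). DESeq2 called 0 in all 4. Zfp458 had the smallest p in the LoF cross, 0.83 (SE 0.182, edgeR adjusted p = 0.330) for polysome over input, where 38 of 124 members had an unadjusted p under 0.05 (all genes 6.87%) and the median was 0.32. Without LoF control pool 1 that median was 0.14, without cHet pool 1 it was 0.18, and after the GC correction 0.087. The LoF cross had 2 such members for polysome over monosome (all genes 3.02%), and the T532M cross had 13 (all genes 6.1%) and 4 (all genes 6.85%). In the T532M cross Zfp628 led polysome over monosome with -0.60 (SE 0.190, edgeR adjusted p = 0.461).

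The difference between the crosses was tested over all 36 libraries and 0 members passed in input (all genes 0.0105%), monosome (all genes 0%) or polysome (all genes 0%). In input the median difference, LoF effect minus T532M effect, was -0.43, and 49 members had an unadjusted p under 0.05 (all genes 15.9%). The median was -0.27 without LoF control pool 1, -0.28 without LoF cHet pool 1 or T532M control pool 1, and -0.073 after the GC correction. Zfp458 came closest, with -0.97 (edgeR adjusted p = 0.0558), before Zfp729b (-2.14) and Zfp131 (-1.45), both at 0.0601. The count in input was 18 under DESeq2, 10 without scaling factors and 0 to 27 with a pool left out. It was 0 after the GC correction, under which Zfp458 was at -0.08. The shares of all genes called under these settings are not given here, so these counts are not shown to be particular to the members. In monosome 13 members (all genes 6.69%) and in polysome 8 (all genes 5.59%) reached an unadjusted p under 0.05. By DESeq2, 2 and 0 were called. Zfp628 in monosome had -0.96 (SE 0.183, edgeR adjusted p = 0.0547) and passed under 5 of 18 alternatives. The 2 control groups differ in cross, Cre and lox allele, which cannot be told apart. Between them 0 members passed by edgeR or DESeq2 in input, monosome or polysome (all genes 0.0261%, 0.0366% and 0.0105%), with 3, 9 and 19 at an unadjusted p under 0.05 (all genes 7.03%, 6.86% and 7.91%), and in polysome the members' median was 0.19 (0.03 without scaling factors, 0.11 from the control polysome libraries alone).

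KRAB zinc finger proteins act through a shared silencing machinery, from TRIM28 and the methyltransferase SETDB1 to heterochromatin proteins. Of 28 tested genes of that machinery, 0 passed in a genotype comparison. Without scaling factors 3 were lower in the difference between crosses in input, and the share of all genes called there is not given here. In control gradients, 20 were higher and 6 lower in polysome than in monosome in LoF controls (median 1.96), where 36.4% of all genes were higher and 44.9% lower (median -0.31). In T532M controls 21 were higher and 6 lower (median 2.10), beside 36% and 43.9% (median -0.31). Without scaling factors 19 were higher and 9 lower in either cross, with medians of 1.14 and 1.11.

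The authors' deposited table of comparisons lists 130 members for the LoF input, of which 9 have an adjusted p under 0.05, all lower in cHet. The shares over all genes in the authors' deposited table are not given here. In the authors' deposited table Zfp873 has a log2 fold change of -1.03 (adjusted p = 0.00297) and Zfp458 -0.79 (adjusted p = 0.00363). The others in the authors' deposited table are Zfp455, Zfp85, Zfp667, Zfp715, Zfp850, Zfp975 and Zfp729b. For the T532M input the authors' deposited table has 1 of 121, Zfp689 (-0.31, adjusted p = 0.0179). For monosome and polysome the authors' deposited table has 0 members under 0.05 in either cross, and in T532M monosome, where 3 were called above, 72 of the 121 have an adjusted p there. The names of these monosome and polysome columns give the fraction only. They do not say whether the effect is within the fraction, as in the fits above, or relative to input. The counts and medians may therefore not measure the same contrast. The members' median log2 fold change in these columns was 0.23 in LoF monosome, with 91 above 0, and 0.27 in LoF polysome. The fits within the fraction gave -0.06 and 0.01. For T532M the authors' deposited table gave medians of -0.26 in the monosome and -0.09 in the polysome column. The fits within the fraction gave -0.18 and -0.10.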

How the data were processed

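RNA was sequenced in 36 libraries (3 pools in each of 12 groups). The authors deposited counts of read pairs per gene, made with featureCounts 2.0.3 over whole gene spans with strand setting 2 and GENCODE M25, per the file headers. The submitters' processing notes name DESeq2 1.34.0, Subread 2.0.3, STAR 2.7.11a and FastQC 0.11.7, with no role given. The authors' deposited comparison tables hold log2 fold changes and adjusted p-values.

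Counts were fitted with edgeR 4.0.16 in R 4.3.3 (quasi-likelihood test, TMM scaling, filterByExpr), 18 libraries a cross or all 36 where crosses were compared. P-values were adjusted by Benjamini-Hochberg over all genes tested, with a threshold of 0.05, in 22 comparisons. Tests were two-sided and the code was tested on simulated data. Levels are CPM on TMM library sizes of the fit of 36 libraries. DESeq2 1.42.0, other scalings, filters, sample sets, blocks and left-out pools were alternatives. A correction for transcript GC content and a fit without scaling factors were added after seeing the data.

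In each comparison the text names the members past the threshold (the 10 with the smallest p where more passed) and the 3 with the smallest p; in fractions the 5 biggest rises and falls with a mean of at least 1 CPM; across pools the 8 widest; by level per kb the 5 highest and 3 lowest; and Zfp458. Zfp60 was chosen after its values were seen. Of these, examples are printed. Members and lists were chosen with earlier results of these data known. Libraries of the same pool share a lysate, per the labels. Their deviations from group means correlated with a median of 0.241. Between pools the median was -0.137. Deviations from a mean of 3 pools cancel out, which alone makes that value negative when the same-pool value is positive. Control and cHet pools of the same number correlated with 0.109 to 0.184 in T532M monosome (other numbers, median -0.0657), but with -0.236 to 0.107 in the input of those pools and -0.429 to 0.294 over all fractions; the labels tie them by number only. Sequence windows and transcript features came from GENCODE M21 on GRCm38.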

Additional observations from a re-analysis of the deposited data

How the results depend on the processing

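Of 1895 recomputed log2 fold changes of named members, 1811 kept their direction and side of the threshold, 44 came to pass it, 25 ceased to and 15 changed sign. Of 289 recomputed counts of members called, 258 stayed within 1.5 times. The cause of the others was not tested. Shares of all genes called under the alternatives are not given here, so the counts below are not shown to be particular to the members. LoF input had 0 members and gave 9 under DESeq2 and 37 without the filter on low counts. LoF monosome had 0 and gave 0 to 1 with a pool left out, the 1 without cHet pool 1. LoF polysome over input had 0 and gave 8 without the filter. T532M input had 0 and gave 1 under DESeq2, 1 without the filter and 0 to 2 with a pool left out, the 2 without control pool 2. T532M monosome had 3 and gave 9 under DESeq2, 1 without the filter, 1 without scaling factors, 4 with the replicate block and 0 to 4 with a pool left out. T532M polysome over monosome had 0 and gave 1 under the GC correction with replicate block (pool). The difference between crosses in input had 0 and gave 18 under DESeq2, 26 without the filter, 10 without scaling factors, 1 with the replicate block and 0 to 27 with a pool left out. The same in monosome had 0 and gave 2 under DESeq2 and 1 each under the GC correction, without the filter, with the replicate block and, at most, with a pool left out (0 to 1). Controls between crosses in input had 0 and gave 1 without the filter. All sign changes were in Zfp458. In the LoF genotype effect in polysome its 0.01 became -0.017 under the GC correction and was negative without cHet pool 1 or 2 (-0.083 to 0.13 with a pool left out). Under the GC correction, and with it and the pool block together, monosome to polysome went from -0.21 to 0.22 and 0.22 in LoF controls and from -0.08 to 0.29 and 0.28 in T532M controls (the last past the threshold in the opposite direction, edgeR adjusted p = 0.0373), and T532M polysome over input from -0.27 to 0.16 and 0.17. Under the GC correction alone the T532M input effect went from 0.14 to -0.21 and controls between crosses in input from -0.16 to 0.095. Controls between crosses gave -0.12 to 0.062 in monosome with a pool left out (main value -0.03; above 0 without control pool 2 of either cross), and in polysome -0.050 without scaling factors and -0.0068 to 0.19 with a pool left out (main value 0.10; below 0 without T532M control pool 1). With plain CPM 304 of 378 mean levels moved by more than 1 SD. The pool block changed no count by over 1.5 times. The number block changed T532M monosome, where the 3 same-numbered pairs each correlated above 0.1, from 3 to 4. Depth limits the least abundant members: Zfp433 had 0 to 8 read pairs in an input library.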
